A study of Gallus gallus with 6 samples.

Results

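Genes of the pre-mRNA splicing machinery and of the hnRNP proteins were compared between cultured chicken primordial germ cells (PGC) and cultured chicken embryonic fibroblasts (CEF). The members were the genes with 1 annotated symbol that begins with SNRP, SRSF, SF3A, SF3B, HNRNP, LSM and a digit, PRPF, U2AF, RBFOX, MBNL, CELF or PTBP. HNRNPKL was left out. This gave 76 genes of 13009 with a single symbol on the Affymetrix Chicken Genome array, each read from whichever of its probe sets had the highest 6-array mean. PGC, from which eggs and sperm later derive, came from blood of embryos at day 2.5, with 20 embryos pooled per replicate, and were grown in knockout DMEM to which human bFGF, a growth factor, was added at 10 ng/ml. CEF came from the bodies of embryos at day 6.5 without internal organs and limbs, with 5 embryos pooled per replicate, and were grown to passage 2 in DMEM with 10% serum. Each cell type had 3 arrays, and embryonic age, medium and cell type changed together. No genotype or transgene is given for either culture.

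Splicing removes introns from nuclear transcripts. Small nuclear ribonucleoproteins (snRNPs), built on rings of Sm and LSm proteins, recognise the splice sites and assemble into the spliceosome with the SF3 and PRPF proteins. SR proteins (SRSF) generally promote and hnRNP proteins often repress the use of an exon. The RBFOX, MBNL, CELF and PTBP families are regulators whose levels differ between tissues, and in human and mouse cells MBNL proteins repress the splicing pattern of embryonic stem cells.

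Of the 76 members, 22 had higher values in PGC and 6 in CEF, while 48 met no call. A call needed a 2-fold difference or more and a limma p under 0.05 after Benjamini-Hochberg adjustment over all probe sets. Among all 13009 genes 17.6% were called higher in PGC and 14.9% higher in CEF, against 28.9% and 7.89% of the members. In either direction it was 32.5% of all genes. Of the 11463 genes above background in either cell type 20.0% were called in PGC and 16.8% in CEF, against 29.3% and 8% of 75 such members. All 3 PGC arrays lay above all 3 CEF arrays for 52 members, and the reverse held for 14, where 35.7% and 35.5% of all genes were so separated. Of the 62 SNRP, LSM, SF3, U2AF, PRPF, SRSF and HNRNP genes, 19 were called higher in PGC and 0 in CEF. Towards CEF 6 of the 62 had an unadjusted limma p under 0.05, against 4313 of all 13009 genes. Of 14 RBFOX, MBNL, CELF and PTBP genes, 3 were higher in PGC and 6 in CEF. The difference between these sets was not tested. The 62 include LSM genes whose products act outside the spliceosome, 3 of them among the 19. The median log2 difference, PGC minus CEF, was 0.65 for the 62 genes, -0.41 for the 14 and -0.05 for all genes.

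**Figure D1:**
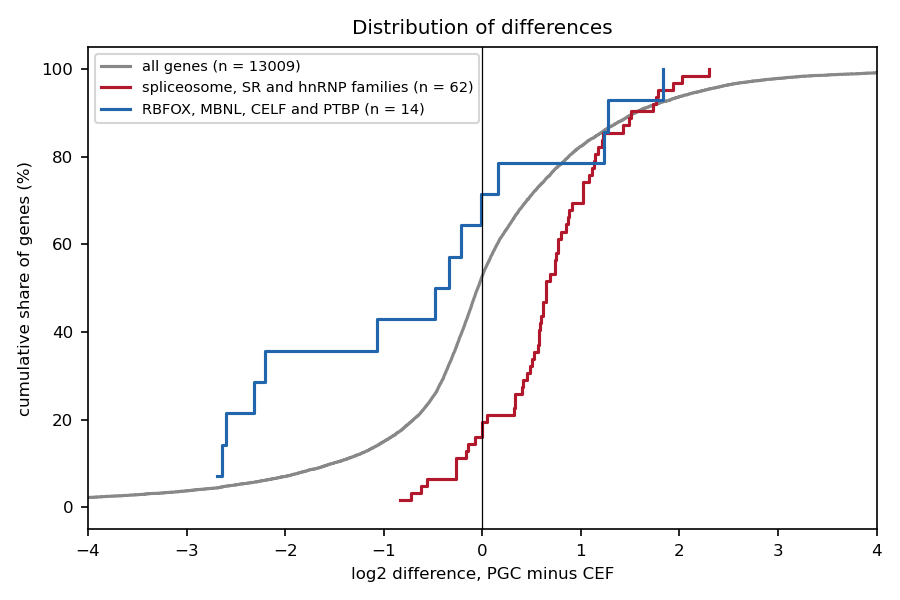
Cumulative share of genes (%, vertical axis) by log2 difference, PGC minus CEF (horizontal axis, shown from -4 to 4), for all 13009 genes, the 62 SNRP, LSM, SF3, U2AF, PRPF, SRSF and HNRNP genes and the 14 RBFOX, MBNL, CELF and PTBP genes. The curve of the 62 genes lies below that of all genes up to a difference of 1, and that of the 14 genes lies above it between -2 and 0.

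Levels are deposited log2 values, and differences are on the same scale. Base 2 is read from the range of the values and is not stated by the submitters. Marker genes matched the labels of the cultures, with all 7 measured germ cell markers called in PGC and all 8 fibroblast markers called in CEF. Of markers of other cells, 4 of 9 neural ones (ELAVL4, NEFM, STMN2 and SYT1) and 2 of 3 epithelial ones (EPCAM and CDH1) were called in PGC. Only 3 of 8 erythroid markers were measured, and 0 were called in either direction. Their mean log2 level was 3.17 to 3.30 in PGC and 3.47 to 3.72 in CEF. Of 5 endothelial markers 1, VWF, was called in CEF and 0 in PGC. Arrays correlated across probe sets at 0.997 within PGC and between 0.980 and 0.987 within CEF. The members varied more between CEF arrays (median SD 0.149) than between PGC arrays (0.0642), as did all genes (0.197 and 0.0848). The bioB, bioC and bioD spike-ins, bacterial control transcripts, differed by -1.09 (PGC minus CEF). Scaling to them moved the median of all genes from -0.05 to 1.04. The cre spike-in, at 11.49 in PGC and 11.60 in CEF, differed by -0.12 and was not used for scaling. The spike-ins thus gave unlike shifts, and whether any of them follows the amount of sample RNA was not tested. Spike-in scaling shifts every gene alike, so it leaves the members' median 0.65 above that of all genes. In these bulk samples a lower value cannot be told apart between fewer cells of a type and less RNA per cell. Leukocyte markers were present in CEF, 5 of 7 being called there and 1 in PGC, with a mean log2 level of 4.51, 3.99 and 5.29 in CEF replicates 1, 2 and 3 against 2.89 to 2.96 in PGC. Of the 7, only LYZ lay under background in CEF. Their part in the results was not tested.

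**Figure D2:**
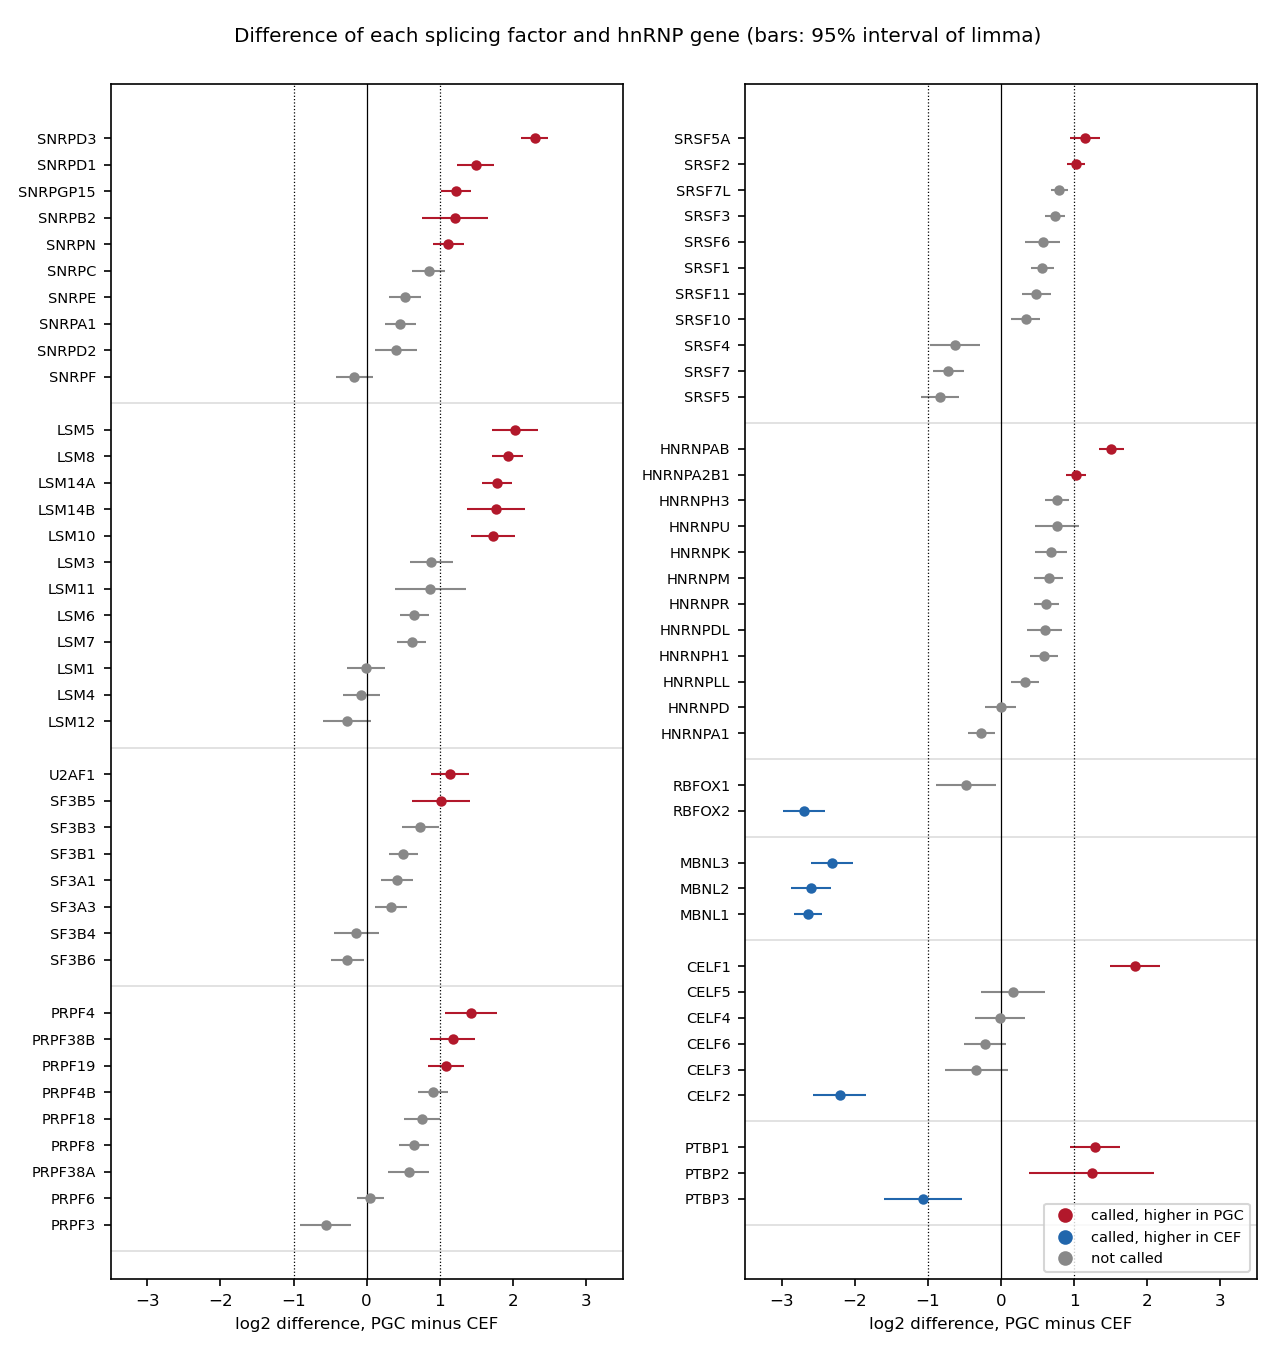
Log2 difference, PGC minus CEF (horizontal axis), of each of the 76 members (vertical axis, grouped by family and sorted), with the 95% interval of limma as a bar and dotted lines at a 2-fold difference. Called genes of the snRNP, LSM, SF3, PRPF, SRSF and HNRNP families all lie to the right, while RBFOX2, the 3 MBNL genes, CELF2 and PTBP3 lie to the left.

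The Sm proteins form the ring on the U1, U2, U4 and U5 snRNAs. Of these and the snRNP proteins named with them, 5 of 10 members were called higher in PGC (50.0%, against 17.6% of all genes). In CEF 0 were called (against 14.9%). An unadjusted limma p under 0.05 towards CEF was found for 0 as well, against 4313 of all 13009 genes. SNRPD3, a Sm ring protein, had log2 levels of 9.83, 9.91 and 9.84 in PGC and 7.66, 7.44 and 7.59 in CEF. The groups lay far apart, and the gene was 4.92-fold higher in PGC (log2 difference 2.30 ± 0.08 SE, limma adjusted p = 1.1e-07). This was the largest difference towards PGC among the 76. SNRPD1, another Sm protein, measured 8.30, 8.46 and 8.21 in PGC and 6.86, 6.95 and 6.70 in CEF. It was 2.81-fold higher in PGC (1.49 ± 0.11, adjusted p = 6.7e-06). SNRPN, for which RefSeq lists SNRPB as a synonym, was 2.17-fold higher (1.12 ± 0.09), and SNRPB2, a U2 snRNP protein, 2.31-fold (1.21 ± 0.20).

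SNRPGP15, for which RefSeq lists SNRPG as a synonym, was 2.33-fold higher in PGC (1.22 ± 0.09) by its brightest probe set. Of its 5 probe sets 2 were called in PGC and 3 were not called, with differences down to -0.61, and with probe sets of type _a_at (several transcripts of 1 gene), _s_at and _x_at left out its difference was -0.29. A further 4 members of the family, SNRPC, SNRPE, SNRPA1 and SNRPD2, were higher in PGC by less than 2-fold (log2 difference 0.40 to 0.85, adjusted p up to 0.030). At a limma adjusted p under 0.05 with no minimum fold, 9 of the 10 were higher in PGC and 0 in CEF. Of all genes 32.1% and 29.3% were. SNRPF, a Sm ring protein, lay under background in both cell types, at 0.83 ± 0.10 in PGC and 1.00 ± 0.14 in CEF (SD, n = 3), so nothing can be read from it.

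LSM proteins form a similar ring on the U6 snRNA, and some have other roles. In this family 5 of 12 were higher in PGC (41.7%, against 17.6% of all genes) and 0 in CEF (against 14.9%). Towards CEF 0 had an unadjusted limma p under 0.05, where 4313 of all 13009 genes did. LSM5, of the U6 ring, measured 6.48, 6.43 and 6.56 in PGC and 4.65, 4.29 and 4.44 in CEF. LSM8, the subunit that keeps the ring nuclear, measured 9.10, 9.11 and 9.06 in PGC and 7.32, 7.10 and 7.06 in CEF. Both had PGC arrays well above all CEF arrays, LSM5 by 4.08-fold (2.03 ± 0.14, adjusted p = 3.9e-06) and LSM8 by 3.81-fold (1.93 ± 0.09, adjusted p = 6.2e-07). Their ring partners LSM3, LSM6 and LSM7 were higher in PGC by 0.61 to 0.88, under the 2-fold minimum. LSM4, also of that ring, had a difference of -0.07, with a 95% interval of -0.33 to 0.18.

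LSM1, which replaces LSM8 in the cytoplasmic ring that promotes mRNA decay, measured 7.01, 7.04 and 7.18 in PGC and 7.24, 6.95 and 7.05 in CEF. The groups overlapped, and its difference was -0.01 with a 95% interval of -0.26 to 0.25. LSM10, a subunit of the U7 snRNP that processes histone mRNA ends, was 3.32-fold higher in PGC (1.73 ± 0.13). The second probe set of LSM10 went towards CEF (-0.62, limma adjusted p = 0.0065), at 1.58 in PGC, under background, and 2.20 in CEF. LSM11, the U7 partner of LSM10, had a level of 2.55 in PGC and lay under background in CEF (1.68). It was at least 1.49-fold higher in PGC (limma adjusted p = 0.0089), short of the 2-fold minimum. LSM14A and LSM14B, proteins of cytoplasmic mRNP granules, were 3.43-fold (1.78 ± 0.09) and 3.40-fold (1.77 ± 0.17) higher in PGC. LSM14A measured 9.66, 9.55 and 9.58 in PGC against 7.69, 7.79 and 7.97 in CEF. By the mean of all their probe sets LSM8 (0.98), LSM10 (0.56) and LSM14B (0.83) fell under the 2-fold minimum. For LSM8 and LSM14B that mean included probe sets under background in both cell types.

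SF3A and SF3B proteins belong to the U2 snRNP that binds the branch point, and U2AF1 recognises the end of the intron. U2AF1 measured 8.71, 8.85 and 8.45 in PGC and 7.60, 7.54 and 7.45 in CEF, and was 2.20-fold higher in PGC (1.14 ± 0.11, adjusted p = 4.7e-05). SF3B5, the other called gene of these 8, where 17.6% of all genes were called in PGC, had low levels of 3.39, 3.19 and 3.38 in PGC and 2.49, 2.44 and 1.98 in CEF. Its difference of 1.02 ± 0.17 lay at the 2-fold minimum, and it ranged from 0.85 to 0.99 without PGC replicate 1, PGC replicate 3 or CEF replicate 3, which ended the call each time. SF3A1, SF3A3, SF3B1 and SF3B3 were higher in PGC by 0.33 to 0.73. The remaining pair did not pass, SF3B4 with a difference of -0.14 and SF3B6 with -0.26 (limma adjusted p = 0.40 and 0.057). For SF3B1 1 dimmer probe set differed by 2.00, and the other, under background in CEF, was at least 1.68-fold higher in PGC. For SF3B3 3 of 4 dimmer probe sets were called in PGC, at up to 2.998.

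Most PRPF proteins act in the U4/U6.U5 tri-snRNP or in the activated spliceosome. Of 9 measured, 3 were higher in PGC (33.3%, against 17.6% of all genes) and 0 in CEF (against 14.9%). Towards CEF 1 had an unadjusted limma p under 0.05, where 4313 of all 13009 genes did. PRPF4, of the U4/U6 snRNP, had log2 levels of 3.43, 3.29 and 3.38 in PGC and 1.67, 2.07 and 2.08 in CEF, where its mean lay just under background. It was at least 2.62-fold higher in PGC (1.43 ± 0.15 on the deposited values, adjusted p = 7.6e-05). PRPF19, the ubiquitin ligase of the PRP19 complex, was 2.11-fold higher (1.08 ± 0.11) and PRPF38B 2.26-fold (1.17 ± 0.13). By the mean of their probe sets PRPF4 (0.61) and PRPF38B (0.77) were not called. For both genes the only other probe set lay under background in both cell types. PRPF8, the scaffold of the catalytic core, was higher by 0.65 ± 0.09, under the minimum. A dimmer probe set of PRPF8 was called in PGC (2.33, limma adjusted p = 1.1e-05), and another differed by 0.71, under the minimum. PRPF6, a tri-snRNP protein, measured 7.73, 7.75 and 7.66 in PGC and 7.67, 7.63 and 7.68 in CEF by its brightest probe set. That difference of 0.05 had a 95% interval of -0.14 to 0.24. A dimmer probe set of PRPF6, at 5.71 in PGC and 4.84 in CEF, was higher in PGC by 0.87 (limma adjusted p = 0.0014), under the minimum. PRPF3, another U4/U6 protein, described after its values were seen, was the member of this family with a small difference towards CEF (-0.56 ± 0.15, adjusted p = 0.014), which turned to 0.53 after spike-in scaling.

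SR proteins bind exonic enhancers through their RNA recognition motifs. Of 11 measured, 8 were higher in PGC at an adjusted p under 0.05, a share of 72.7% where 32.1% of all genes were, and 3 were higher in CEF, where 29.3% were. Past the 2-fold minimum were 2 in PGC (18.2%, near the 17.6% of all genes) and 0 in CEF (against 14.9%). SRSF2 measured 10.16, 10.24 and 10.25 in PGC and 9.20, 9.18 and 9.20 in CEF, with a difference at the minimum (1.02 ± 0.06, adjusted p = 1.2e-06) that came to 0.90 with centring on the 75th percentile. SRSF10 had the smallest difference of the family, 0.34 ± 0.09. SRSF1, SRSF3, SRSF6, SRSF7L and SRSF11 lay between 0.48 and 0.80.

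Relatives within the SR family differed in direction. SRSF5A measured 10.02, 10.02 and 9.92 in PGC and 8.94, 8.64 and 8.93 in CEF, and was 2.22-fold higher in PGC (1.15 ± 0.09, adjusted p = 1.1e-05), though its difference was 0.65 with probe sets of those types left out. SRSF5 measured 6.31, 6.24 and 6.33 in PGC and 7.26, 7.14 and 6.99 in CEF, higher in CEF by less than 2-fold (-0.83 ± 0.11, adjusted p = 0.00028). For SRSF7L, whose gene lies within 2 entries of SRSF7 in the RefSeq gene table, the difference was 0.80 ± 0.05, and for SRSF7 it was -0.72 ± 0.09 (adjusted p = 0.00022). These 2 genes and SRSF5, along with SRSF4 (-0.63), were chosen for description after their values were seen. On each array the log2 value of SRSF5A minus that of SRSF5 was between 3.59 and 3.78 in PGC and between 1.499 and 1.95 in CEF. The corresponding SRSF7L minus SRSF7 was between 3.09 and 3.16 in PGC and between 1.56 and 1.68 in CEF. Both pairs were formed from genes seen to go opposite ways, so that the separation of the groups is a description and was not tested. After spike-in scaling SRSF5 (0.25), SRSF7 (0.37) and SRSF4 (0.46) turned sign, while those array-wise differences do not depend on scaling. How far related transcripts share probes was not tested.

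The hnRNP proteins coat nuclear transcripts and take part in splicing, export and mRNA stability. By their brightest probe sets 2 of 12 were higher in PGC, a share of 16.7% near the 17.6% of all genes, and 0 in CEF, where 14.9% of all genes were. At a limma adjusted p under 0.05 with no minimum fold, 10 of the 12 were higher in PGC and 1 in CEF. Of all genes 32.1% and 29.3% were. Among the 10 were 8 that were higher by 0.33 to 0.77, under the minimum. Among these, a dimmer probe set above background went towards CEF for HNRNPDL (-0.89), HNRNPH1 (-0.50) and HNRNPU (-0.36). The limma adjusted p was 0.00063, 0.033 and 0.081. Another dimmer probe set was higher in PGC for HNRNPH1 (0.89) and HNRNPU (0.42), with limma adjusted p = 5.6e-05 and 0.038. Dimmer probe sets of HNRNPH3, HNRNPLL and HNRNPM were called in PGC. HNRNPAB measured 10.56, 10.59 and 10.48 in PGC and 9.17, 8.93 and 9.0035 in CEF, and was 2.84-fold higher (1.51 ± 0.07, adjusted p = 7e-07). HNRNPA2B1, which also carries mRNAs to their place of translation, differed by 1.03 ± 0.06, close to the minimum, and came to 0.987 without CEF replicate 2 and to 0.997 without PGC replicate 1, just under it. HNRNPD, also known as AUF1 and a regulator of mRNA decay, measured 8.46, 8.44 and 8.41 in PGC and 8.60, 8.42 and 8.30 in CEF. Its groups overlapped, and the 95% interval of its difference ran from -0.21 to 0.21. As the mean of their probe sets HNRNPAB (0.70) and HNRNPA2B1 (0.79) were not called. HNRNPK was among the 8, with 0.68 ± 0.10.

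For HNRNPA1, a repressor of many exons, singled out after its values were seen, the direction depended on the probe set. Its brightest probe set measured 10.00, 9.99 and 10.06 in PGC and 10.42, 10.11 and 10.33 in CEF, a small difference towards CEF (-0.27 ± 0.08, adjusted p = 0.022) that turned to 0.82 after spike-in scaling. The other 4 probe sets annotated to HNRNPA1 were all called higher in PGC, with differences between 1.02 and 2.01. RefSeq lists HNRNPA3 as a synonym of this gene, and which transcripts each probe set detects was not tested. As the mean of its probe sets HNRNPA1 was called in PGC at 1.15.

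RBFOX2, an exon regulator of mesenchymal, muscle and nerve cells, had the largest difference of all 76 members. It measured 5.33, 5.51 and 5.33 in PGC and 7.89, 8.12 and 8.24 in CEF. Every CEF array lay above every PGC array by more than 2 log2 units, and the gene was 6.46-fold higher in CEF (-2.69 ± 0.12, adjusted p = 4.8e-07). Of its 3 probe sets only the brightest was called. The other 2 lay near or under background, with differences of -0.16 and 0.07, and the mean of the 3 was not called (-0.93). RBFOX1, best known from neurons and muscle, was under background in PGC (1.61 ± 0.14, SD, n = 3) and at 2.09 ± 0.33 in CEF, and was not called (-0.48 ± 0.18, adjusted p = 0.054).

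**Figure D3:**
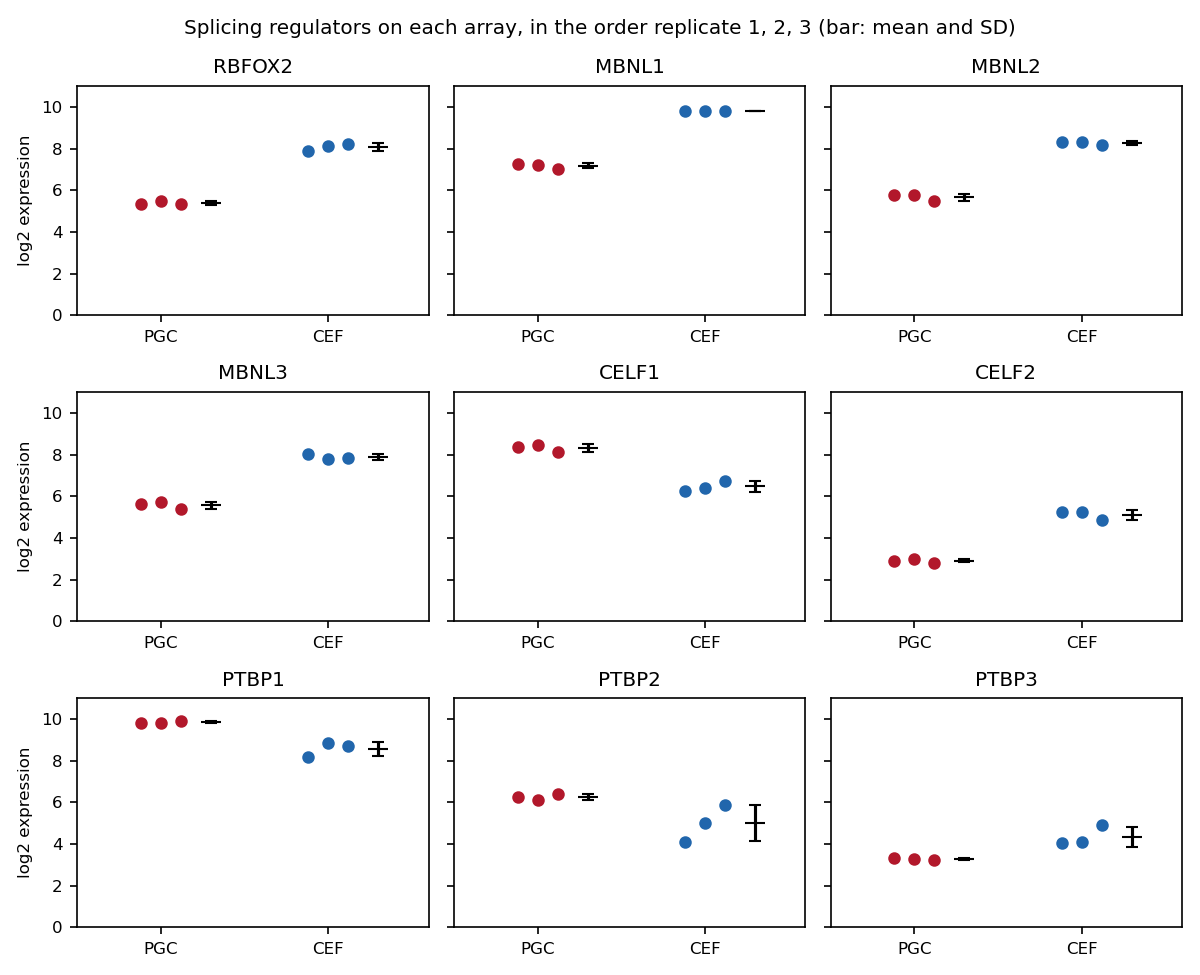
Log2 expression (vertical axis) of 9 splicing regulators on the 3 PGC and 3 CEF arrays, as points in the order replicate 1, 2 and 3, with the mean and SD of each cell type as a bar. RBFOX2, MBNL1, MBNL2, MBNL3, CELF2 and PTBP3 are higher on every CEF array, and CELF1, PTBP1 and PTBP2 on every PGC array. The CEF points of PTBP2 spread from 4.12 to 5.88.

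All 3 muscleblind genes were called in CEF, where 14.9% of all genes were. Muscleblind proteins bind sites around alternative exons, and their loss to expanded repeats underlies the splicing defects of myotonic dystrophy. MBNL1 measured 7.25, 7.23 and 7.04 in PGC and 9.82, 9.80 and 9.81 in CEF, a 6.22-fold difference (-2.64 ± 0.08, adjusted p = 6.1e-08). MBNL2 measured 5.76, 5.76 and 5.47 in PGC and 8.32, 8.32 and 8.15 in CEF, 6.05-fold higher in CEF (-2.60 ± 0.12, adjusted p = 4.7e-07). MBNL3 measured 5.61, 5.72 and 5.39 in PGC and 8.03, 7.78 and 7.86 in CEF, 4.97-fold higher (-2.31 ± 0.13, adjusted p = 1.3e-06). All 3 stayed well above background in PGC, so both cell types had a signal for each. Together with RBFOX2 and CELF2 they remained called in CEF after spike-in scaling.

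The muscleblind probe sets did not all move alike. For MBNL2 5 of 7 probe sets were called in CEF and 0 in PGC. For MBNL1 2 of 5 were called in CEF, the brightest and one at -2.66, while the other 3 were dimmer and lay between -0.46 and 0.23. For MBNL3 2 of 5 were called in CEF, at -2.31 and -2.30, and 1 was called in PGC. That probe set measured 4.64, 5.21 and 4.73 in PGC and 3.26, 3.99 and 2.96 in CEF (1.45 ± 0.27, adjusted p = 0.0022). By the mean of its probe sets MBNL3 was not called (-0.61).

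CELF1 and CELF2 were called in opposite directions. CELF proteins bind GU-rich RNA, and CELF1 opposes MBNL1 on many exons in mammalian heart and muscle. CELF1 measured 8.36, 8.47 and 8.11 in PGC and 6.26, 6.42 and 6.75 in CEF, 3.57-fold higher in PGC (1.84 ± 0.15, adjusted p = 1.4e-05). All 3 of its probe sets were called in PGC, the other 2 at 1.38 and 3.01. CELF2 measured 2.92, 2.99 and 2.82 in PGC and 5.25, 5.25 and 4.85 in CEF, 4.61-fold higher in CEF (-2.21 ± 0.16, adjusted p = 6.0e-06). Its second probe set was also called in CEF (-1.44). CELF1 minus CELF2 on each array lay between 5.29 and 5.48 in PGC and between 1.01 and 1.90 in CEF. The pair joins a gene called in PGC with one called in CEF, so these values are a description with no test.

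The remaining CELF genes, known mainly from the nervous system, were close to background in both cell types. CELF3 had mean levels of 2.12 in PGC and 2.46 in CEF, CELF4 of 2.13 and 2.14, CELF5 of 2.18 and 2.02, and CELF6 of 2.10 and 2.32. None was called (adjusted p between 0.17 and 0.95), and at these levels a difference in either direction would be hard to see. Their signs, from -0.34 for CELF3 to 0.16 for CELF5, were all positive after spike-in scaling.

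Polypyrimidine tract binding proteins repress exons. PTBP1 is the widespread member and PTBP2 the neuronal one. PTBP1 measured 9.81, 9.82 and 9.92 in PGC and 8.18, 8.82 and 8.71 in CEF, 2.43-fold higher in PGC (1.28 ± 0.15, adjusted p = 0.00013). Its second probe set, bright in both cell types, showed a difference of 0.00 with overlapping groups (adjusted p = 0.98). PTBP2 measured 6.23, 6.10 and 6.40 in PGC and 4.12, 5.03 and 5.88 in CEF. The groups did not overlap but the CEF arrays spread widely, and the difference of 1.24 ± 0.37 (adjusted p = 0.024) lost its call when any array but CEF replicate 3 was left out. A second probe set of PTBP2 was also called (1.95), and 3 lay under background in both cell types. Neural markers, called in PGC for 4 of 9 and in CEF for 0, had mean log2 levels of 4.06 to 4.16 in PGC and 2.94 to 2.97 in CEF. ELAVL4 differed most, by 6.39. By sign 5 of the 9 were higher in PGC and 4 in CEF (NEFL, SNAP25, TUBB3 and SOX10). The part of neural markers in the result was not tested.

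PTBP3, first described in blood cells, measured 3.33, 3.30 and 3.21 in PGC and 4.03, 4.11 and 4.91 in CEF, higher in CEF by 2.09-fold (-1.07 ± 0.23, adjusted p = 0.0048). Without CEF replicate 3 the difference was -0.79 and the call ended. After spike-in scaling it was 0.02. The other 2 probe sets of PTBP3 were not called. Of these, 1 measured 3.24 in PGC and 3.45 in CEF (-0.21, overlapping groups), and 1 lay under background in both cell types. As the mean of their probe sets PTBP1 (0.64), PTBP2 (0.63) and PTBP3 (-0.53) were not called. Leukocyte markers had mean levels of 4.51, 3.99 and 5.29 in CEF replicates 1, 2 and 3. Replicate 3 was the highest CEF array for them and for PTBP2 and PTBP3. The lowest was replicate 2 for the markers and replicate 1 for both genes. Whether leukocyte RNA contributed was not tested.

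**Figure D4:**
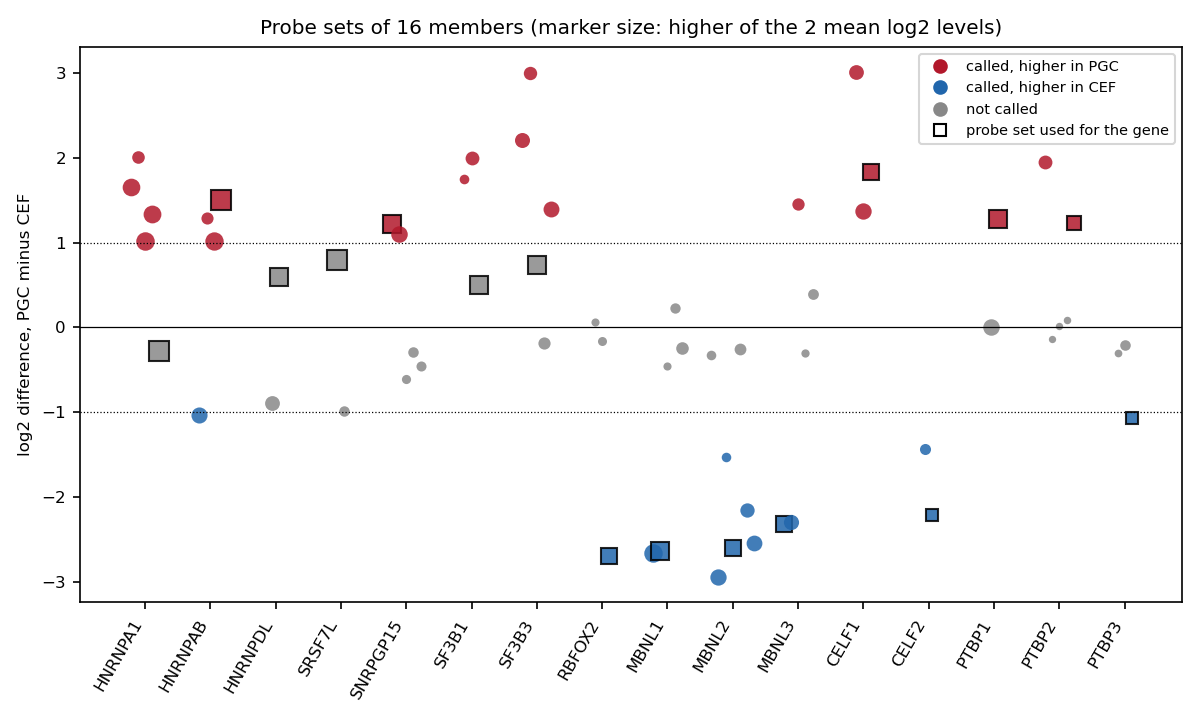
Log2 difference, PGC minus CEF (vertical axis), of every probe set of 16 members (horizontal axis), chosen after their values were seen. Squares mark the probe set used for the gene, colour the call, and marker size the higher of the 2 mean log2 levels. HNRNPAB and MBNL3 have called probe sets on both sides of 0, and the square of HNRNPA1 lies below its other 4 probe sets.

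Most members had more than 1 probe set, which share the same RNA and are not replicates. Of 57 members with several probe sets, 6 had all of them called, 24 had none, and 27 had some called and some not, as did 37.9% of 7334 genes with several probe sets. Calls in opposite directions were found for 2 of the 57, HNRNPAB and MBNL3, and for 0.709% of those genes. For HNRNPAB 3 probe sets were called in PGC, and 1 of lower signal was called in CEF, with 6.86, 6.92 and 6.76 in PGC and 7.83, 7.70 and 8.09 in CEF (-1.03 ± 0.12, adjusted p = 0.00012).

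A list with 162 entries for splicing genes was chosen with earlier results of these data known. Some genes were entered under several names, and PRPF4B, a member, was among the entries. The list gave 123 measured genes that are not members. Of these 27 were higher in PGC and 1 in CEF, or 22.0% and 0.813%, where 17.6% and 14.9% of all genes were called. Of the 11463 genes above background in either cell type 20.0% and 16.8% were called, so that the share in PGC lay near theirs. The median difference of the 123 genes was 0.57. Among other snRNP and early spliceosome proteins 5 of 14 were called in PGC, among the PRP19 complex and catalytic factors 4 of 18, in the minor spliceosome 3 of 8 and in snRNP assembly 4 of 14. The SR-related proteins had 4 of 18, the exon junction complex 2 of 9, the SR kinases and importers 1 of 8 and the hnRNP-like proteins 1 of 16. In these 8 groups 0 were called in CEF. ISY1, of the PRP19 complex, measured 8.84, 8.84 and 8.74 in PGC and 6.67, 6.31 and 6.18 in CEF (2.42 ± 0.13, limma adjusted p = 1.2e-06). SON, a nuclear speckle protein, differed by 2.24 ± 0.23 and DYRK1A, a kinase of splicing factors, by 2.25 ± 0.43. The CEF arrays of DYRK1A spread from 1.70, under background, through 3.17 to 3.66, and its call ended in a test against a 2-fold minimum.

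**Figure D5:**
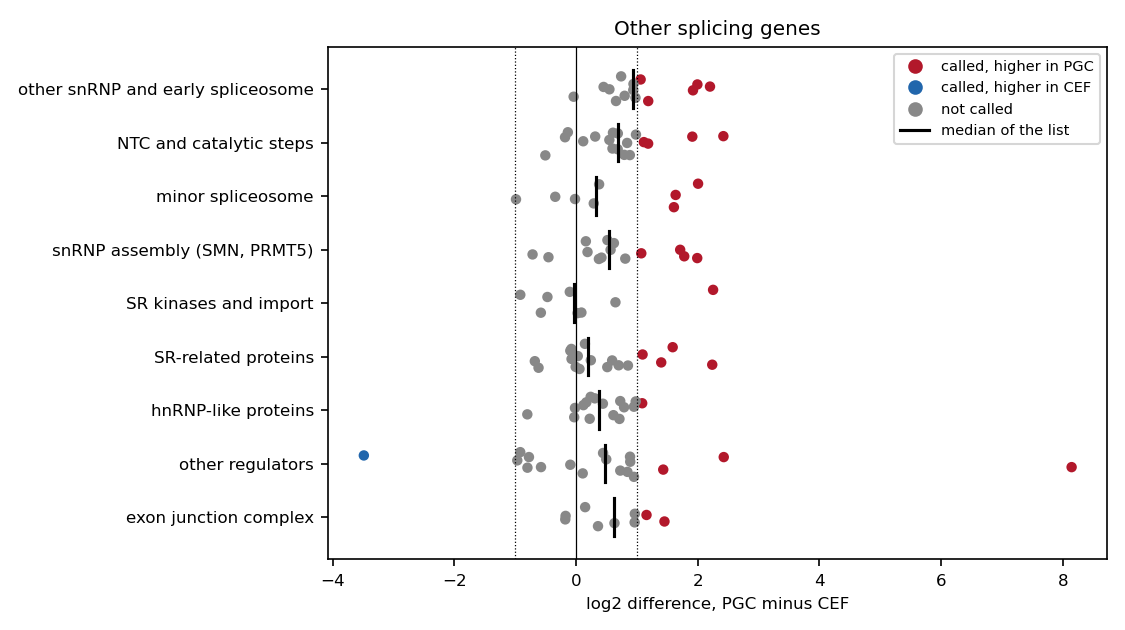
Log2 difference, PGC minus CEF (horizontal axis), of the 123 other splicing genes in 9 groups (vertical axis, points spread for legibility), with the median of each group as a black line and dotted lines at a 2-fold difference. Points past the right dotted line occur in every group, and the one called gene on the left is RBM24.

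Of 18 further regulators, 3 were higher in PGC and 1 in CEF, where 17.6% and 14.9% of all genes were, so that the share in PGC lay near that of all genes. ESRP2, an epithelial splicing regulator, measured 8.71, 8.64 and 8.59 in PGC and was under background in CEF, at least 102-fold higher in PGC (8.15 ± 0.12, adjusted p = 2.4e-09). It was read from a shared probe set, and with _a_at, _s_at and _x_at probe sets left out its difference was -0.09. The 3 epithelial markers had mean log2 levels of 5.55 to 5.77 in PGC and 1.29 to 1.77 in CEF, and their part in the result was not tested. RBPMS2, an RNA-binding protein of smooth muscle and germ cells, differed by 2.43 ± 0.27. RBM24, a muscle splicing regulator, measured 2.66, 2.47 and 2.50 in PGC and 6.32, 6.28 and 5.49 in CEF, 11.2-fold higher in CEF (-3.49 ± 0.23, adjusted p = 3.4e-06). Of 7 muscle markers 2 were called in CEF, TNNT2 and ACTC1. MYOG (-0.53) and TNNI1 (-0.43) were higher in CEF by less than 2-fold (limma adjusted p = 0.014 and 0.025). MYOD1, MYF5 and DES were not called (limma adjusted p between 0.15 and 0.90). The mean log2 level of the 7 was 3.16 to 3.31 in CEF and 2.61 to 2.71 in PGC. Their part in the result was not tested.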

How the data were processed

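RNA of 6 samples was hybridised to 6 one-colour Affymetrix arrays. Titles of the samples gave the group and the number of each replicate, described there as biological. The deposited log2 values of 38535 probe sets were used without further scaling. MAS5 and GCOS are named in the submitters' processing notes, without role or version, and how the values were normalized is not stated there. The 96 control probe sets were left out, and 38439 were tested with limma 3.58.1 in R 4.3.3 (lmFit, eBayes with trend, two-sided, 4 residual degrees of freedom). The number of arrays limits the precision. Gene symbols come from the platform annotation (27178 probe sets with 1 symbol, 177 with several, 11180 with none), and all 76 members kept their symbol in RefSeq (GRCg7b). Background was the 95th percentile of 689 probe sets without the chicken prefix (mean 1.68 in PGC, 1.97 in CEF). Where 1 cell type lay under it, folds are lower bounds against it. The test was tried on simulated data with equal spread in both cell types, whereas the real CEF arrays varied more than the PGC arrays. Named genes comprised called members, all RBFOX, MBNL, CELF and PTBP genes, the largest and smallest difference of each other family, members with opposite probe sets, and the 5 largest called differences in each direction among other splicing genes. Other members are named to account for their family, and HNRNPA1, PRPF3, SRSF4, SRSF5, SRSF7 and SRSF7L were singled out after their values were seen. The members, lists and tests were chosen with earlier results of these data known. No sequences were used here. Alternatives covered scaling, filtering, probe set choice, the variance model, a test against 2-fold, a replicate block and leaving out each array.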

Additional observations from a re-analysis of the deposited data

How the results depend on the processing

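With quantile normalization, the filter on low values, no intensity trend and array weights, the counts of members called stayed at 21 or 22 in PGC and at 6 in CEF. Without each array in turn they were 19 to 21 in PGC and 5 to 6 in CEF, and the members' median difference was 0.56 to 0.66. Spike-in scaling, which used bioB, bioC and bioD but not cre, called 58 members in PGC and 5 in CEF (median 1.69). Centring on the 75th percentile called 17 and 6 (median 0.48). The share of members' calls in PGC was 78.6% with the deposited values and 92.1% with spike-in scaling, against 54.3% and 88.8% for all genes. With the mean of all probe sets, which includes those under background, 17 and 3 members were called (median 0.44). Of these 11 and 3 were also called by the brightest probe set. Calls lost there were those of HNRNPA2B1, HNRNPAB, LSM10, LSM14B, LSM8, MBNL3, PRPF38B, PRPF4, PTBP1, PTBP2, PTBP3, RBFOX2, SNRPGP15 and SRSF5A. Their place was taken in PGC by HNRNPA1, HNRNPH3, HNRNPLL, PRPF8, SF3B1 and SF3B3. With _a_at, _s_at and _x_at probe sets left out the median was 0.42. Genes with no other type kept theirs. Treat against a 2-fold minimum called 9 members in PGC and 5 in CEF. It ended the calls of HNRNPA2B1, PRPF19, PRPF38B, PRPF4, PTBP1, PTBP2, PTBP3, SF3B5, SNRPB2, SNRPGP15, SNRPN, SRSF2, SRSF5A and U2AF1, and centring on the 75th percentile those of HNRNPA2B1, PRPF19, SF3B5, SNRPN and SRSF2. The other splicing genes called in PGC numbered 99 with spike-in scaling and 15 with treat. In CEF they numbered 5 with centring on the 75th percentile, 3 with quantile normalization, 2 with the mean of all probe sets and 3 with only the remaining probe set types. Without each array in turn 26 to 33 were called in PGC and 1 to 3 in CEF.

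Turns of sign were followed gene by gene only for a set of named genes, so the lists here do not cover every member. Over all 76 members, positive differences numbered 54 with the deposited values and 71 with spike-in scaling. Among the genes followed, spike-in scaling turned the sign of CELF3 (0.75), CELF4 (1.07), CELF6 (0.87), RBFOX1 (0.61), HNRNPA1 (0.82), HNRNPD (1.09), LSM1 (1.08), PRPF3 (0.53), PTBP3 (0.022), SF3B4 (0.94), SNRPF (0.92), SRSF4 (0.46), SRSF5 (0.25) and SRSF7 (0.37). The mean of all probe sets turned CELF5 (-0.071), HNRNPA1 (1.15) and SF3B4 (0.00044). Leaving out _a_at, _s_at and _x_at probe sets turned ESRP2 (-0.086), HNRNPA1 (1.66), PRPF3 (0.040), SF3B4 (0.15) and SNRPGP15 (-0.29). PRPF6 turned with centring on the 75th percentile (-0.071) and quantile normalization (-0.0073). CELF4 turned with quantile normalization (0.033). HNRNPD (0.012) and LSM1 (0.021) turned with array weights. Leaving out 1 array turned CELF4, CELF5, HNRNPD and LSM1, whose values ran from -0.11 to 0.12, from -0.019 to 0.31, from -0.073 to 0.078 and from -0.070 to 0.074. Apart from the constructions named, the cause was not tested. With the replicate number as a block 22 and 6 members were called. Deviations of same-numbered arrays correlated between -0.036 and 0.0088, and those of the other pairs between -0.079 and 0.084. Whether same-numbered arrays share a batch was not tested.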
